A study of Mus musculus with 4 samples.

Results

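The genes described here are the 10 transcription factor genes Fos, Fosb, Fosl1 and Fosl2 (Fos subfamily), Jun, Junb and Jund (Jun subfamily), and Maff, Mafk and Mafg (small Maf subfamily). They were chosen by name, and all 10 were found among the 24421 gene symbols counted in each library. The RNA, selected by its poly(A) tails, came from cortical neural stem cells of C57BL/6J mice, dissected at E17 (embryonic day 17) and grown for 1 day with bFGF and EGF at 10 ng/mL each. Of the 4 libraries, 2 carry the genotype Prrc2bf/f; Nestin-Cre and 2 the genotype Prrc2bf/f. Both groups thus have loxP sites around a part of Prrc2b, and the libraries labelled Nestin-Cre also have the recombinase, placed under control of sequence from Nes, a gene active in neural progenitors. The question behind the comparison is what changes in the transcriptome when these cells are meant to lose Prrc2b, a gene of the proline-rich coiled-coil family. The labels do not say whether the libraries of a group came from separate embryos or cultures, or from pools. The p-values therefore measure only how far these libraries spread, in large part as pooled over all genes tested. That spread may be technical.

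The proteins of these genes bind DNA as pairs joined by a leucine zipper, next to a stretch of basic residues that touches the DNA. Jun proteins pair with one another or with Fos proteins, Fos proteins need a Jun partner, and the pair, called AP-1, binds the sequence TGANTCA or the related cyclic AMP response element (CRE) TGACGTCA. Fos, Fosb, Jun and Junb are immediate early genes, switched on within minutes by growth factors, cytokines or synaptic activity through MAP kinases, serum response factor and CREB, and their mRNAs are short-lived. The small Maf proteins lack an activation domain and pair with themselves, with Fos, or with the cap'n'collar factors such as Nrf2 (gene Nfe2l2), with which they bind antioxidant response elements. In neural progenitors and astrocytes AP-1 is known for its part in growth factor, injury and cytokine responses.

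The start regions are printed for 6 of the 7 genes whose transcripts were lower, as given below, since several of them are known for regulated starts. That of Mafg, which was lower too, was searched but is not printed. Each line gives the 120 bases before a RefSeq transcript start in the GRCm38.p6 build, 5′ to 3′ on the strand of the gene. Capitals mark matches to the CRE TGACGTCA, its core TGACG, the AP-1-like site TGACATCA known from the Jun promoter, and TATAAA.
Fos, chr12:85473770-85473889, plus strand: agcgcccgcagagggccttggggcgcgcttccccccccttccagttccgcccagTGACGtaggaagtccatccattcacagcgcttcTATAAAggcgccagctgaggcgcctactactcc
Fosb, chr7:19310046-19310165, minus strand: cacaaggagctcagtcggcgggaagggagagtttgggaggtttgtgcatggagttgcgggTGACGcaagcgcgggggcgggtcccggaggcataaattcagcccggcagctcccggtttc
Fosl2, chr5:32136352-32136471, plus strand: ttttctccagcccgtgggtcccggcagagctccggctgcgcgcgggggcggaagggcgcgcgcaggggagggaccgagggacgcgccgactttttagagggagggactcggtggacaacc
Jun, chr4:95052223-95052342, minus strand: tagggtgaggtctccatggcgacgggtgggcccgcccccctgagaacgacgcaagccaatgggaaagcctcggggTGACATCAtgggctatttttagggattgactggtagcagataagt
Junb, chr8:84978749-84978868, minus strand: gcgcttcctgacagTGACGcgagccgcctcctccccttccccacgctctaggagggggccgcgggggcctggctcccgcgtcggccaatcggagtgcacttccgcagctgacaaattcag
Maff, chr15:79347400-79347519, plus strand: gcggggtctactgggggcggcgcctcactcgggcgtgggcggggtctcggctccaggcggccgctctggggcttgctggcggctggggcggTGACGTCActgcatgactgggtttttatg
The Maff line is the second of 3 RefSeq starts of that gene. The motifs were searched on both strands in windows of 300 bases, from 250 before to 50 after each start, for 9 of the 10 genes (11 windows in all). The RefSeq start of Jund lies 1210 bases upstream of its start in the GENCODE annotation. That of Fosl2 lies 671 bases downstream of its GENCODE start. For these genes the sequence before the GENCODE start was not searched. Cores TGACG, which every full CRE holds as well, were found in 7 of the 11 windows, from 6 genes, against 20.8% of all 32851 windows. The Fos window holds one of them 66 bases before the start, upstream of TATAAA at 33 bases, and in the Fosb window one lies 60 bases before the start. A full CRE was found in 1 window, that of the second Maff start at 29 bases, against 1.79% of all windows. TGACATCA lies 45 bases before the Jun start and 45 bases before the third Maff start, and 3.62% of all windows hold it. TATAAA was found for Fos and Junb, against 13.6% of all windows. In Junb it lies at the RefSeq start itself, and the start in the GENCODE annotation lies 30 bases downstream of that. TGANTCA (7.81% of all windows) and the CArG box, to which serum response factor binds (1.63%), were in none of these 11 windows, which says only that these letters are not there. The antioxidant response element core TGACNNNGC was found in 3 of the 11 windows, against 12.4% of all windows. These were windows of Mafk, Mafg and the first Maff start.

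Gene counts came to 28205590 and 25936794 in the libraries labelled Nestin-Cre and to 26491919 and 28263272 in the control libraries, and 3 counts, the limit that a count of 0 allows for counting error alone, equal 0.106 to 0.116 CPM (counts per 1000000 gene counts of the library). Prrc2b RNA missed the threshold, at 576 and 574 CPM in the libraries labelled Nestin-Cre against 587 and 593 CPM in control (-0.04 ± 0.02 on the log2 scale, edgeR, adjusted p = 0.134). The labels do not say which exons lie between the loxP sites, and the gene total counts reads from all exons. Whether Prrc2b was deleted in these cells was therefore not tested. Ddx3y, Eif2s3y, Kdm5d and Uty, which are Y-linked, had 0 counts in both libraries labelled Nestin-Cre, and 6.79 to 24.4 CPM in control. Xist, the RNA of the inactive X chromosome in female cells, had 2214 and 2124 CPM in the libraries labelled Nestin-Cre, against 1668 and 1611 CPM in control, so that both control libraries held Xist and Y-linked RNA. Genotype, Cre and the makeup by sex therefore cannot be told apart in any value that follows. The labelled cell type was checked by 10 radial glial genes, none at 0, which shows only that such RNA was present. They summed to 6101 and 6103 CPM in the libraries labelled Nestin-Cre and to 7115 and 7069 CPM in control. Of these genes 5 were lower and 2 higher, Hes5 by 0.89 on the log2 scale, while Sox2 did not pass (-0.01). Neuronal genes were abundant as well, with 8 that summed to 2620 and 2604 CPM against 2279 and 2275 CPM in control. Of these neuronal genes 5 were higher and 0 lower.

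Transcripts of 7 of the 10 genes were lower in the libraries labelled Nestin-Cre and none was higher (edgeR quasi-likelihood test, adjusted p under 0.05 over 15012 genes). Junb was reduced most, to 43.1% of its control level, followed by Fosl2 at 59.5%, while Jun, Fos, Fosb and Maff stood at 73.6% to 80.2%. Jund, Fosl1 and Mafk did not pass. Over all genes tested 18.1% were lower and 15.1% higher, that is 2711 and 2263 genes, and upper quartile scaling gave 2288 lower and 2939 higher, with 6 of the 10 lower and Jund higher. The median log2 fold change of the 10 genes was -0.35, against 0.005 over all genes tested. No gene of the 10 was higher at an unadjusted p under 0.05, by DESeq2 or by limma voom, although Jund passed under the settings given with its values. For 8 of the 10 genes both libraries labelled Nestin-Cre lay below both control libraries, as they did for 31.0% of all genes tested, and for none of the 10 did they lie above both, as they did for 34.2%. All 10 passed the filter on low counts, Fosl1 barely.

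**Figure D1:**
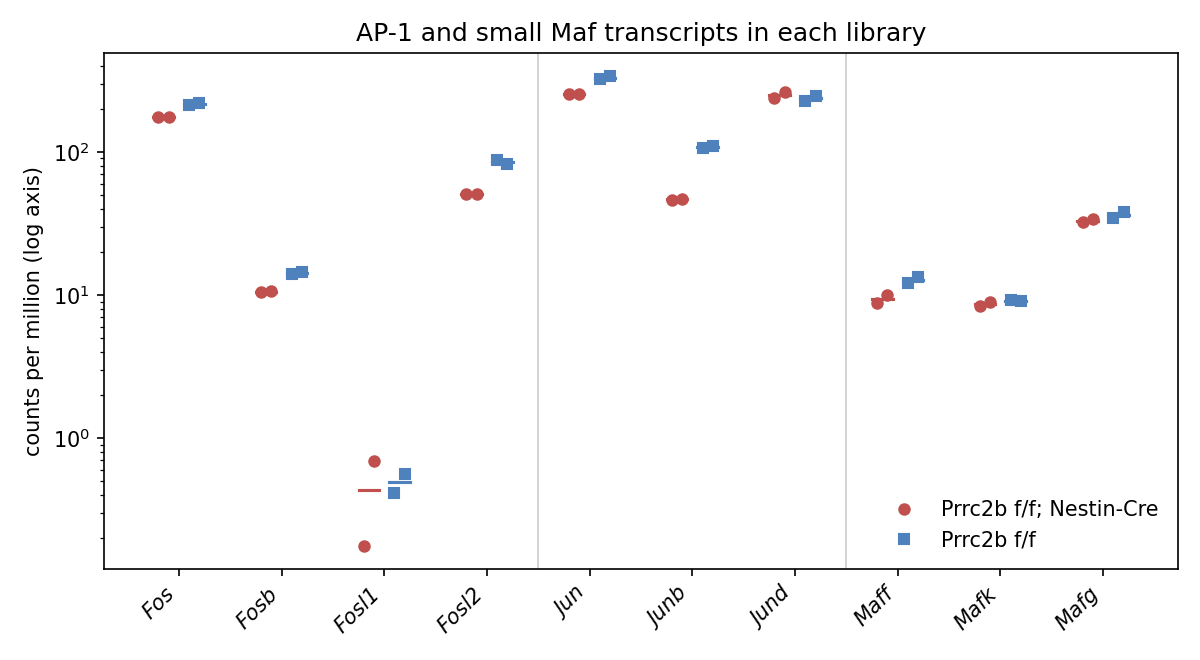
CPM (log axis) of the 10 genes in each of the 4 libraries, Prrc2b f/f; Nestin-Cre as circles and Prrc2b f/f as squares, with a bar at each mean of n = 2. The groups are furthest apart for Junb, at 46.1 and 46.9 against 106 and 110 CPM, and the points of Jund and Fosl1 overlap.

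**Figure D2:**
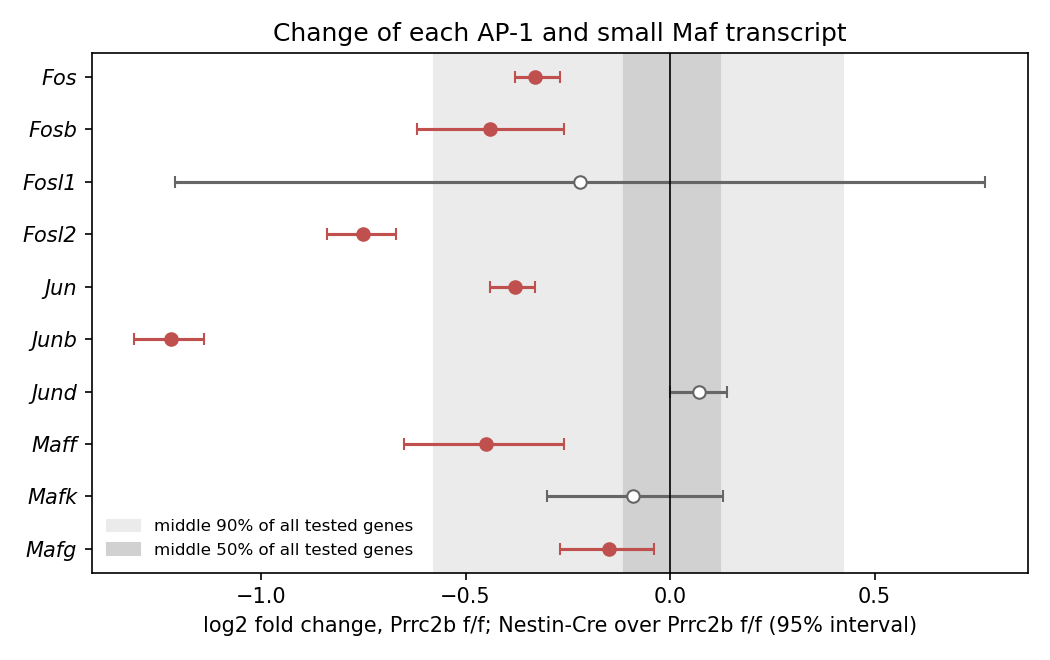
Log2 fold change of each gene, Prrc2b f/f; Nestin-Cre over Prrc2b f/f, with its 95% interval from the quasi-likelihood fit; filled points passed the adjusted threshold, open points did not, and shading shows the middle 50% and 90% of all tested genes. Junb at -1.22 and Fosl2 at -0.75 lie below the 5th percentile of all genes, at -0.578.

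In the Jun subfamily the 3 genes differed widely. Jun and Jund are single exons with no intron, and the longest Junb transcript is a single exon too, although the annotation also holds Junb exons outside it. Junb encodes a weaker activator than Jun that can hold back Jun activity. It had 46.1 and 46.9 CPM in the libraries labelled Nestin-Cre, against 106 and 110 CPM in control. Both control libraries were thus more than 50 CPM above both others. The log2 fold change was -1.22 ± 0.04 (SE; edgeR quasi-likelihood test, adjusted p = 2.4e-24), which is a ratio of 0.428 with a 95% interval of 0.404 to 0.454. By p it ranked 27th of the 15012 genes. Junb lies on the minus strand of chromosome 8 (84974484 to 84978718, GRCm38), and 7.52% of its exon length overlaps Prdx2, a peroxiredoxin gene on the opposite strand, whose own level was 377 and 386 CPM against 339 and 340 CPM in control. Prdx2 rose (0.16 ± 0.03, adjusted p = 2.8e-06) where Junb fell.

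Jun, the founding member and the main partner of Fos, had 254 CPM in each library labelled Nestin-Cre, against 323 and 336 CPM in control. The control libraries were both higher, and differed by more between themselves than the others did. Its fall was -0.38 ± 0.03 on the log2 scale (edgeR, adjusted p = 1.5e-14), a ratio of 0.767 (95% interval 0.738 to 0.796). Jun spans chr4:95049034-95052222 on the minus strand (GRCm38), where the antisense gene Junos covers 7.28% of its exon length.

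Jund, which is expressed more steadily than its relatives and is known to slow growth in fibroblasts, had 237 and 261 CPM in the libraries labelled Nestin-Cre, against 227 and 246 CPM in control. The groups overlap. Jund had a log2 fold change of 0.07 ± 0.03 (edgeR, adjusted p = 0.144), a ratio of 1.05 (95% interval 0.997 to 1.10). Leaving out control replicate 2 or Nestin-Cre replicate 1 raised the value to 0.13 (adjusted p = 0.00115 and 0.00153), and without Nestin-Cre replicate 2 it was -0.0038 (adjusted p = 0.958). The value also passed with upper quartile scaling (0.09, adjusted p = 0.0279). It passed with a replicate block too (0.07, adjusted p = 0.0291). Jund spans chr8:70698949-70700616 on the plus strand (GRCm38). The antisense gene Gm11175, which the count tables do not list, covers 52.58% of its exon length, so that reads of the 2 genes cannot be told apart with certainty.

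Because these genes moved by different amounts, their proportions differed between the groups. There were 0.195 and 0.180 Junb counts per Jund count in the libraries labelled Nestin-Cre, against 0.467 and 0.449 in control. For Junb per Jun the values were 0.182 and 0.185 against 0.328 in both control libraries. Both Junb ratios are free of the scaling between libraries. Neither overlapped between the groups, but no other ratio computed among the 10 genes did so either. Even Fos per Jun, at 0.686 and 0.685 against 0.665 and 0.653 in control, did not overlap. Lack of overlap alone therefore says little here, and the size of the difference is what sets the Junb ratios apart from Fos per Jun. With 2 against 2 libraries an exact two-sided permutation test cannot go below p = 0.333, so none was run.

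In the Fos subfamily the falls ran from Fos to Fosl2. Fos, whose protein binds DNA with a Jun partner and which is the most used marker of recent stimulation, had 174 CPM in each library labelled Nestin-Cre, against 214 and 219 CPM in control. The libraries of a group lay within 5 CPM of each other. Fos thus fell, with a log2 fold change of -0.33 ± 0.03 (edgeR, adjusted p = 9.8e-12), a ratio of 0.798 (95% interval 0.766 to 0.832). Fos spans chr12:85473890-85477273 on the plus strand (GRCm38) and has 4 exons in its longest transcript, as do the other 3 genes of the subfamily.

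Fosb, which is spliced into the full-length FosB and the stable form ΔFosB, had 10.5 and 10.6 CPM in the libraries labelled Nestin-Cre, against 14.0 and 14.4 CPM in control. All control values were above all others. For Fosb the log2 fold change was -0.44 ± 0.09 (edgeR, adjusted p = 0.000154). Gene totals do not tell the 2 splice forms apart. Fosb spans chr7:19302696-19310051 on the minus strand (GRCm38).

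Fosl2 encodes Fra-2, a Fos protein that lacks the strong activation domain of Fos. It had 50.4 and 50.5 CPM in the libraries labelled Nestin-Cre, against 87.3 and 82.1 CPM in control. The groups were apart by more than 30 CPM. On the log2 scale the change was -0.75 ± 0.04 (edgeR, adjusted p = 3.1e-17), a ratio of 0.593 (95% interval 0.558 to 0.630). There were 0.289 and 0.290 Fosl2 counts per Fos count in the libraries labelled Nestin-Cre, against 0.407 and 0.375 in control, so Fosl2 fell further than Fos. Fosl2 spans chr5:32135801-32157842 on the plus strand (GRCm38).

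Fosl1, which encodes Fra-1, was barely counted. It had 5 and 18 counts (0.177 and 0.694 CPM) in the libraries labelled Nestin-Cre, against 11 and 16 counts (0.415 and 0.566 CPM) in control. The library labelled Nestin-Cre 1 was lowest and Nestin-Cre 2 highest of the 4. The log2 fold change was -0.22 ± 0.49 (edgeR, adjusted p = 0.775) with a 95% interval of the ratio of 0.433 to 1.70, so a difference of the size seen for Fosl2 was not detectable at this depth. Its sign turned without control replicate 2 (0.02) and without Nestin-Cre replicate 1 (0.48). Fosl1 spans chr19:5447547-5455946 on the plus strand (GRCm38), and Ccdc85b on the opposite strand covers 57.21% of its exon length.

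Among the small Maf genes Maff changed most. Maff, the member of this subfamily known to be induced by stress and cytokines, had 8.79 and 9.95 CPM in the libraries labelled Nestin-Cre, against 12.2 and 13.3 CPM in control. The groups do not overlap, and each held a spread of about 1 CPM. For Maff the log2 fold change was -0.45 ± 0.10 (edgeR, adjusted p = 0.000292). Maff spans chr15:79346621-79359076 on the plus strand (GRCm38).

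Mafg had 32.2 and 34.0 CPM in the libraries labelled Nestin-Cre, against 34.7 and 38.2 CPM in control. The lower control library lay only just above the others. The log2 fold change was -0.15 ± 0.06 (edgeR, adjusted p = 0.0382). That call was lost without control replicate 2 (-0.08, adjusted p = 0.433), without Nestin-Cre replicate 1 (-0.11, adjusted p = 0.244), with DESeq2 (adjusted p = 0.280), with upper quartile scaling (adjusted p = 0.0865) and with no filter on low counts (adjusted p = 0.105). Mafk had 8.44 and 8.87 CPM in the libraries labelled Nestin-Cre, against 9.17 and 9.09 CPM in control, and a log2 fold change of -0.09 ± 0.10 (edgeR, adjusted p = 0.569). Mafg lies on the minus strand of chromosome 11 (120625117 to 120633600) and Mafk on the plus strand of chromosome 5 (139791513 to 139802653).

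Levels can be compared between genes only per length, here as counts per kilobase of exon (union of all transcripts) and per 1000000 gene counts (RPKM). On that scale Jund was highest in both groups, at 142 and 156 in the libraries labelled Nestin-Cre and 136 and 147 in control. Jun came next, at 79.6 in both libraries labelled Nestin-Cre and at 101 and 105 in control, followed by Fos at 74.1 and 73.9 against 91.2 and 93.2. After these came Junb, at 20.2 ± 0.245 against 47.0 ± 1.40 (SD, n = 2 each). The 6 others were at 6.05 or less in the libraries labelled Nestin-Cre and at 9.02 or less in control. Fosl2 stood above Mafg in control and below it in the libraries labelled Nestin-Cre. With the length of the longest transcript in place of all exons, Fos stood above Jun in the libraries labelled Nestin-Cre, at 82.6 and 82.5 against 79.6 in both, so the order of these neighbours depends on the length used. In control they then overlapped, with Fos at 102 and 104 and Jun at 101 and 105. With exon unions, no pair of neighbours in the order overlapped in the range of its libraries in either group, although the 2.33 and 2.35 of Mafk and the 2.25 and 2.31 of Fosb in control were close.

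The summed level of the 10 genes was 334 and 350 in the libraries labelled Nestin-Cre, against 399 and 419 in control. Jund took 42.5% and 44.7% of this sum in the libraries labelled Nestin-Cre, against 34.1% and 35.2% in control. The share of Junb was 6.00% and 5.83% against 11.5% and 11.4% in control. The shares of the subfamilies as wholes moved less. The Fos subfamily had 24.3% and 23.2% against 25.7% and 24.9% in control, the Jun subfamily 72.4% and 73.3% against 70.9% and 71.7%, and the small Maf genes 3.38% and 3.48% against 3.32% and 3.40%.

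**Figure D3:**
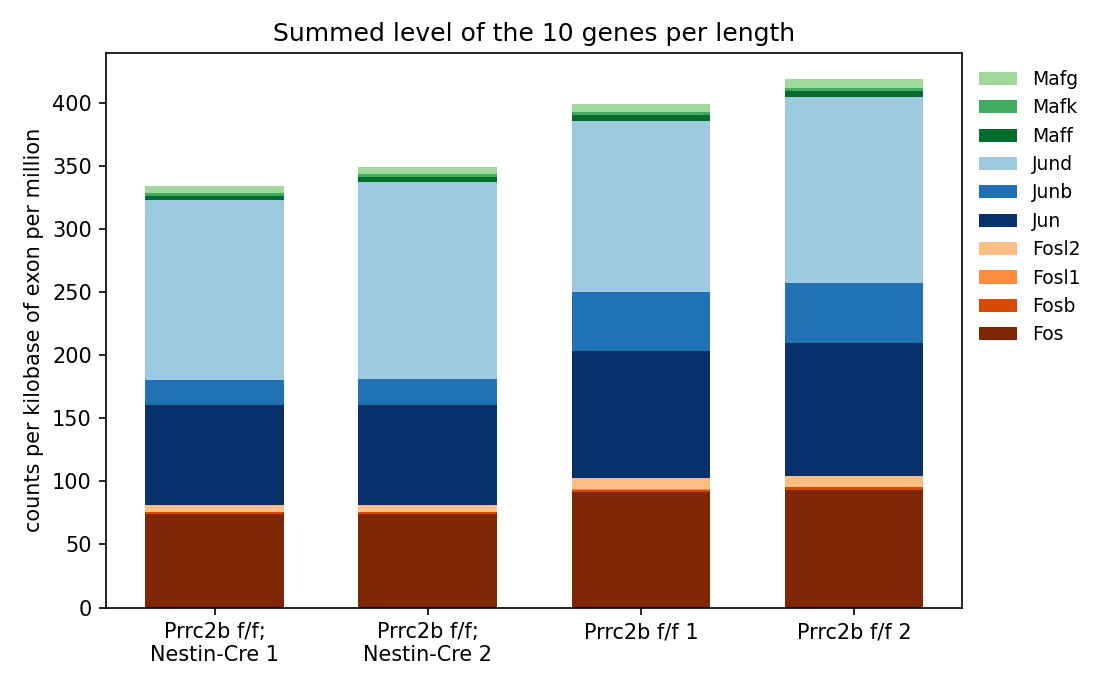
Stacked levels per length (RPKM) of the 10 genes in each library, the 2 Prrc2b f/f; Nestin-Cre libraries on the left and the 2 Prrc2b f/f libraries on the right. The totals are 334 and 350 against 399 and 419, and the band of Junb takes 6.00% and 5.83% of them against 11.5% and 11.4%.

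The genes closest to Fos in pattern, by Euclidean distance between mean-centred log2 CPM over the 4 libraries, were Bmp1 (distance 0.0021), Eif1a (0.0047) and Stk40 (0.00722). Those closest to Jun were S100a11 (0.0227), Peg10 (0.0269) and Boc (0.0269). Such closeness is common with so few libraries, since 397 of 12961 genes lay within 0.1 of Fos and 257 within 0.1 of Jun.

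Other factors of the basic leucine zipper class, which can pair with the members, were mostly lower or did not pass. Over all genes tested 18.1% were lower and 15.1% higher, the shares to set beside this list and those below. Of 15 tested out of 20 listed, 7 fell and 1 rose, with a median log2 fold change of -0.13, and 2 rose without control replicate 1. Nfe2l2, which encodes Nrf2, a partner of the small Maf proteins, had 115 and 114 CPM in the libraries labelled Nestin-Cre, against 167 and 173 CPM in control (-0.58 ± 0.03, adjusted p = 2.1e-17). The stress-induced repressor gene Atf3 had 0.780 and 1.23 CPM against 2.49 and 2.97 CPM (-1.46 ± 0.25, adjusted p = 1.0e-05). Nfe2l1 (-0.25), Maf (-0.32) and Atf4 (-0.15) also fell, and Nfe2l3, the 1 that rose, is given although the naming rule did not take it (0.59 ± 0.15).

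Upstream of the members, transcripts of 7 of 20 kinases and serum response factors fell and 2 rose, with a median of -0.03. The median over all genes tested was 0.005, and 18.1% of them were lower and 15.1% higher. Rps6ka1, whose kinase RSK1 is activated by MAP kinases and phosphorylates Fos in turn, had 83.5 and 86.2 CPM in the libraries labelled Nestin-Cre, against 120 and 115 CPM in control (-0.47 ± 0.04, adjusted p = 2.3e-13). Elk3 (-0.28) and Mkl2 (-0.21), which encode partners of serum response factor, fell as well. So did Rps6ka3 (-0.19), which without control replicate 1 was at -0.10 (adjusted p = 0.0547) and with DESeq2 at -0.20 (adjusted p = 0.168). The 2 that rose, chosen for naming after their values were seen, were Mapk8, which encodes the Jun kinase JNK1 (0.10), and Rps6ka5 (0.22). Leaving out any 1 library left 1 rise, and DESeq2 left none and 4 falls.

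Of the genes for phosphatases that switch MAP kinases off, several of which are themselves induced by MAP kinase signalling, 7 of 11 fell in RNA. In the same list 1 rose, and the median was -0.15. Dusp4 had 39.0 and 35.4 CPM in the libraries labelled Nestin-Cre, against 73.5 and 74.8 CPM in control (-1.0 ± 0.05, adjusted p = 1.5e-19). Dusp6, a cytoplasmic MAP kinase phosphatase, had 70.9 and 72.9 CPM against 116 and 117 CPM (-0.70 ± 0.04, adjusted p = 2.6e-18). Dusp16, which acts on Jun kinases, fell by 0.35 on the log2 scale. Dusp1 (-0.21) and Dusp5 (-0.39) fell too, but missed the threshold without Nestin-Cre replicate 1 (adjusted p = 0.0723 and 0.200) and with DESeq2 (adjusted p = 0.0968 and 0.148), and Dusp5 also without control replicate 2 (adjusted p = 0.106). The 7 falls became 4 without control replicate 2 or Nestin-Cre replicate 1 and 3 with DESeq2. Dusp10, the 1 that rose (0.16, named after its value was seen), missed the threshold with DESeq2, with no low-count filter, and without control replicate 1, control replicate 2 or Nestin-Cre replicate 1.

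For 6 genes whose proteins bind AU-rich elements, such as those in Fos mRNA, the median was -0.04. Of them 3 fell in RNA and none rose. Nor did any rise at an unadjusted p under 0.05, by DESeq2 or by limma voom. Zfp36, whose protein tristetraprolin promotes decay of such mRNAs and which is itself an immediate early gene, had 18.4 and 16.3 CPM in the libraries labelled Nestin-Cre, against 31.6 and 32.9 CPM in control (-0.90 ± 0.07, adjusted p = 8.7e-14). Its relative Zfp36l2 fell by 0.11 on the log2 scale. Zfp36l1 was at -0.09 (adjusted p = 0.0108), a call lost without control replicate 1 (adjusted p = 0.0537), without Nestin-Cre replicate 2 (adjusted p = 0.205), with upper quartile scaling (adjusted p = 0.0786) and with DESeq2 (adjusted p = 0.0861). Elavl1 and Hnrnpd did not pass, both at 0.02.

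Other immediate early genes fell for 10 of 18 and rose for 1, with a median of -0.30. Ier3, known as a target of NF-κB and growth factor signalling, had 68.9 and 71.8 CPM in the libraries labelled Nestin-Cre, against 154 and 167 CPM in control (-1.20 ± 0.04, adjusted p = 4.6e-25). Arc (-0.84), Egr2 (-0.68) and Klf6 (-0.44) fell by more than Fos, and Egr1 by less (-0.20). Btg2, the 1 that rose (0.28), is also a gene of neurogenic progenitors and was named after its value was seen.

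Of 22 genes known as AP-1 targets 17 were counted often enough to test, and 15 of them fell and 1 rose. Several passed the filter on low counts only through the control libraries, so the count over tested genes says little. Of the 7 with a mean of at least 10 CPM over all libraries 6 fell and 1 rose. Ccnd1, which encodes the G1 cyclin D1, had 924 and 916 CPM in the libraries labelled Nestin-Cre, against 1411 and 1406 CPM in control (-0.62 ± 0.02, adjusted p = 5.1e-25). The hyaluronan receptor gene Cd44 had 103 and 101 CPM against 203 and 193 CPM (-0.97 ± 0.03). The protease inhibitor gene Timp1 (-1.59 ± 0.06), the secreted phosphoprotein gene Spp1 (-1.80 ± 0.07) and the EGF receptor ligand gene Hbegf (-1.03 ± 0.04) fell as well. Vegfa, the 1 that rose, had 1108 and 1085 CPM against 883 and 889 CPM (0.30 ± 0.02) and was named after its value was seen. Markers of microglia and macrophages (7.66 and 6.59 against 11.0 and 12.3 CPM summed) and of mural cells and fibroblasts (232 and 240 against 335 and 326 CPM) were lower in the same libraries labelled Nestin-Cre. Without Cspg4 and Pdgfra, which also mark oligodendrocyte precursors and were left out after their values were seen, the mural and fibroblast sums were 51.7 and 55.6 against 184 and 180 CPM, or 29.5% of control in place of 71.6%. The part of these cell types in these values was not tested. Many of these genes also answer to other factors, and whether AP-1 was bound at any of them was not measured.

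Genes with antioxidant response elements, the sites of the small Maf and Nrf2 pair, fell for 11 of 14, with a median of -0.37. None rose, also at an unadjusted p under 0.05, by DESeq2 or by limma voom. The cystine transporter gene Slc7a11 had 22.3 and 20.7 CPM in the libraries labelled Nestin-Cre, against 48.3 and 50.6 CPM in control (-1.21 ± 0.06, adjusted p = 1.5e-19). Srxn1 (-0.93), Hmox1 (-0.81), Txnrd1 (-0.42) and the ferritin gene Fth1 (-0.38) fell too, whereas Nqo1, named after its value was seen, was at 8.12 and 8.14 CPM against 7.96 and 8.00 CPM and did not pass (0.02, adjusted p = 0.92).

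**Figure D4:**
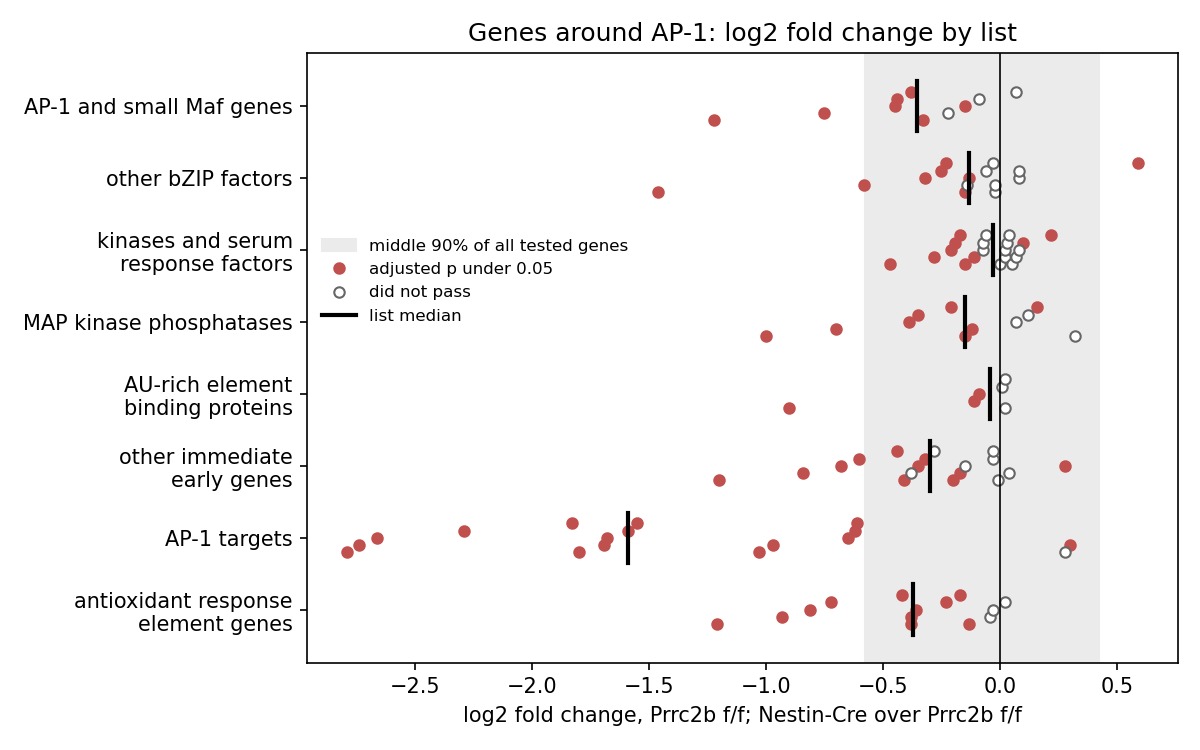
Log2 fold change, Prrc2b f/f; Nestin-Cre over Prrc2b f/f, of each tested gene in 8 lists; filled points passed the adjusted threshold, open points did not, bars are list medians, and shading is the middle 90% of all tested genes. The median is -0.35 for the AP-1 and small Maf genes and -0.03 for the kinases and serum response factors; that of the AP-1 targets, -1.59, includes genes that passed the filter only through control and is -0.97 over the 7 with a mean of at least 10 CPM.

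Markers of other cell types differed between the same libraries. Their counts are to be set beside the 18.1% lower and 15.1% higher over all genes tested. In bulk RNA fewer cells of a type and less RNA per cell cannot be told apart. Of 12 markers of microglia and macrophages 8 were tested, 5 fell and none rose by edgeR, and the sums are given above with the AP-1 targets. Some of the 5 passed the filter only through control, such as C1qb with 5 and 3 counts against 21 and 33, so this count says little. Aif1, which was too low to test, went the other way, with 15 and 8 counts in the libraries labelled Nestin-Cre against 2 and 3 in control. Of 12 markers of mural cells and fibroblasts 8 of 11 tested fell, and the 1 that rose was Cspg4. Endothelial markers summed to 15.4 and 16.4 CPM against 22.5 and 23.4 CPM in control, with 2 of 8 tested lower and 1 higher. The lower sum rests on Flt1, at 4.15 and 4.32 CPM against 11.2 and 12.6 CPM in control. Kdr, the 1 that was higher, had 3.97 and 4.70 CPM against 2.26 and 2.69 CPM, so the list did not move as a whole. Astrocyte markers summed to 1124 and 1121 CPM against 1797 and 1825 CPM in control, with 3 of 5 tested lower and 1 higher. Most of that difference lay in Gfap, at 328 and 323 CPM against 857 and 877 CPM in control, and Aldoc was the 1 that was higher. Oligodendrocyte lineage markers summed to 1542 and 1585 CPM against 1399 and 1440 CPM in control, with 4 of 8 higher and 1 lower. Choroid plexus markers summed to 1354 and 1368 CPM against 212 and 219 CPM in control, with 6 of 8 higher. Ttr made up most of these sums, at 1274 and 1293 CPM against 178 and 185 CPM in control. Otx2 (0.02) and Prlr (-0.86) did not pass. The erythroid globin genes Hba-a1, Hba-a2, Hbb-bs and Hbb-bt were at 0 in every library, and no other listed marker was. The part of these differences in the values of the 10 genes was not tested.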

How the data were processed

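The authors deposited 1 table of raw counts for each library, recognised as such because all values are whole and totals differ. Per the labels' protocols, poly(A) RNA was made into paired-end libraries that mark the strand by dUTP. Tools listed in the submitters' processing notes, with no role, are DESeq2 1.26.0, HISAT2 2.2.1 and HTSeq 0.12.4, and the build is mm10. The annotation and strand setting are not stated there or in the labels (not given in the sources used here). Summary lines of unassigned reads (25.2% to 26.1% of entries) were left out. Titles gave groups and replicate numbers.

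The test was that of edgeR 4.0.16, run in R 4.3.3 (filterByExpr, scaling by the trimmed mean of M values, quasi-likelihood F test with the legacy fit off, Benjamini-Hochberg adjustment over 15012 genes, threshold 0.05). An SE is the size of the log2 fold change divided by the root of its F statistic. Alternatives used DESeq2 1.42.0, limma voom 3.58.1, other scalings, filters and a replicate block, and omitted each library. The edgeR steps were also run on simulated counts, with independent libraries, a spread common to all genes and few changed genes. That cannot test the scaling where many genes change, or libraries that are not independent. Positions and lengths are from GENCODE M21 on GRCm38, the assembly of mm10, and start regions from RefSeq (GRCm38.p6); 95.721% of symbols matched GENCODE. Named were all 10 genes, per list up to 5 tested genes with the smallest p, the 3 genes nearest to Fos and to Jun, and markers at 0 in every library; 1 gene this rule names is not reported here. The genes and lists were chosen with earlier results of these data known.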

Additional observations from a re-analysis of the deposited data

How the results depend on the processing

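Of the 10 genes, Fosl2, Jun and Junb kept their fall and Mafk stayed short of the threshold under all 14 alternatives. Fos, Fosb and Maff lost the call only in the test against a 1.2-fold change (-0.33, -0.44 and -0.45, adjusted p = 0.0663, 0.0968 and 0.0933), which left 3 of the 7 falls. Mafg was at -0.15 there (adjusted p = 1), at -0.13 with upper quartile scaling, and at -0.15 with no low-count filter and with DESeq2. Over omitted libraries it ran from -0.22 to -0.08. Jund was at 0.09 with upper quartile scaling and ran from -0.0038 to 0.13 over omitted libraries. Fosl1 ran from -1.46 to 0.48 with a positive sign when control replicate 2 (0.02) or Nestin-Cre replicate 1 (0.48) was omitted.

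Same-numbered libraries did not deviate together (r = 0.0159 across 12962 genes). That cannot show whether they shared a litter or a preparation, which the labels do not say. With the replicate block, 2443 genes were higher and 2881 lower, and Jund passed as higher (0.07), which made 1 member higher in place of 0; it was also 1 with upper quartile scaling, and 0 to 1 over omitted libraries.

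Over all genes 2263 were higher and 2711 lower. DESeq2 gave 1055 and 1642, the 1.2-fold test 279 and 760. Upper quartile scaling gave 2939 and 2288, so the balance of rises and falls depends on the scaling, which shifted log2 fold changes by a median of 0.027.

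In the 1.2-fold test the lists had 2 falls and 0 rises for other leucine zipper factors, 1 and 0 for kinases, 2 and 0 for phosphatases, 1 fall for AU-rich element binders, 5 and 0 for immediate early genes, 0 rises for AP-1 targets and 7 falls for antioxidant genes. DESeq2 gave 4 falls and 0 rises for kinases and 3 and 0 for phosphatases. With upper quartile scaling 2 leucine zipper factors and 4 kinases rose, and with no low-count filter 0 phosphatases. Over omitted libraries rises ran from 1 to 2 for leucine zipper factors, stood at 1 for kinases and ran from 0 to 1 for phosphatases, whose falls ran from 4 to 6. For the named genes of these lists and Prrc2b, 480 values under alternatives kept their call and direction and 24 lost the call. The cause was not tested, except that the 1.2-fold test asks for a larger change.

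By longest transcript in place of the exon union, the levels per length in the libraries labelled Nestin-Cre were 82.6 for Fos, 2.79 for Fosb, 7.71 for Fosl2, 25.7 for Junb, 4.79 for Maff, 2.79 for Mafk and 6.72 for Mafg. There Fosl2 stood above Mafg and Fos above Jun (79.6), and in control Fosb (3.76) stood above Mafk (2.95).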
